A study of Mus musculus with 2 samples.

Results

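The genes described are 8 non-classical or class I-like heavy chains, H2-T23 (Qa-1), H2-T22, H2-Q4, H2-Q6, H2-Q7, H2-M3, Cd1d1 and Mr1, out of 32285 genes counted. They were taken by symbol, and the set had been chosen by levels and differences already seen in these libraries, so every value of theirs is a description without a test. Tumours had been grown from 4T1 cells, an epithelial mammary carcinoma line derived from a BALB/c mouse, placed in the mammary fat pad with Matrigel. The vehicle group received normal saline and the other group β-elemene, a plant sesquiterpene, at 30 mg/kg by daily intraperitoneal injection, and tumours were taken after 18 days. Droplet-based 3' single-cell RNA sequencing gave 1 library per group. The strain, age and number of the host mice behind each library are not given in the sources used here. Tumour cells and host cells are both of mouse, so malignant cells were recognised by epithelial markers only.

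Class I heavy chains pair with β2-microglobulin and are displayed at the cell surface. The classical chains H2-K1 and H2-D1 present varied peptides to CD8 T cells, whereas the non-classical chains present narrow sets of ligands. H2-T23 encodes Qa-1, which displays leader peptides of classical chains to the CD94/NKG2 receptors of natural killer and CD8 T cells. H2-T22 encodes a ligand of some γδ T cell receptors, H2-Q6 and H2-Q7 belong to the genes of the Qa-2 antigens, and H2-M3 presents peptides that begin with formyl-methionine. Cd1d1 presents lipids to natural killer T cells, and Mr1 presents vitamin B2 metabolites to mucosal-associated invariant T cells.

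The vehicle library held 168750895 UMIs (unique molecular identifiers, 1 per captured transcript molecule) in 11324 barcodes and the β-elemene library 157282740 in 11539, of which 10455 and 10564 were kept as single cells. Clusters were made without class I genes and named from marker genes, and the names are rebuilt ones, hence "-like". Malignant-like cells numbered 3787 in vehicle and 2944 in β-elemene, macrophage-like 2889 and 3001, neutrophil-like 1124 and 1778, fibroblast-like 658 and 655, and monocyte-like 541 and 639. T cell-like cells, a cluster led by Nkg7, Gzmb and Cd8b1, numbered 235 and 238, endothelial-like 196 and 198, and dendritic-like 134 and 120. A cluster led by Icos and Il2ra (303 and 338 cells) stayed without a class name because its cells were shallow and no T cell marker was among its top 10 genes. It is called the Icos Il2ra cluster. NK cell-like (51 and 83) and pericyte-like cells (39 and 38) were too few for a comparison, and 4.76% and 5.04% of cells lay in unnamed clusters. The libraries shared 37 barcodes, 27 of them kept in both. Transcripts typical of other cell types were seen in both libraries: Krt18, an epithelial keratin, had a UMI in 40.9% and 39.2% of macrophage-like cells. S100a9, a neutrophil protein, had one in 20.0% of T cell-like cells in vehicle and in 36.1% in β-elemene, and in 4.29% and 7.98% with each cell thinned to 1000 UMIs, where the intervals overlapped (2.08% to 7.75% and 4.88% to 12.19%). For S100a8, its partner, the shares were 20.4% and 23.5%. Whether such UMIs came from RNA free in the suspension was not tested.

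On the mm10 build with the GENCODE vM21 annotation, 6 of the genes lie in the H2 complex on chromosome 17. H2-Q4 spans chr17:35379617-35385290, H2-Q6 chr17:35424850-35430055 and H2-Q7 chr17:35439155-35443773, all on the plus strand. H2-T23 spans chr17:36029773-36032855 and H2-T22 chr17:36037128-36042747 on the minus strand, and H2-M3 spans chr17:37270220-37274484 on the plus strand. Cd1d1 lies on the minus strand at chr3:86995834-86999441, and Mr1 on the minus strand at chr1:155127277-155146814. The opposite strand of H2-T23 and of H2-T22 carries A930015D03Rik, and that of H2-Q4 carries Gm11131. Whether the counting used strand is not stated. A930015D03Rik stood at 15.2 CPM (UMIs scaled to a total of 1000000) over all kept cells in vehicle and 17.0 in β-elemene, and Gm11131 at 1.32 and 1.46.

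Promoter stretches are shown for H2-T23, H2-T22, H2-Q7, H2-M3 and Mr1. They were picked with the ratios between the libraries known, and those of H2-Q4 and H2-Q6 are not shown. A link of promoter to ratio was not tested. The RefSeq tables (GRCm38.p6) held promoters of 7 of the 8 genes, and not of Cd1d1. Each line gives the 200 bases before the RefSeq start, 5′ to 3′ on the gene's strand, and the windows are chr17:36032702-36032901 for H2-T23, chr17:36042743-36042942 for H2-T22, chr17:35438955-35439154 for H2-Q7, chr17:37270034-37270233 for H2-M3 and chr1:155146815-155147014 for Mr1. Capitals mark matches, on either strand, to 5 motifs that were chosen after the sequences had been seen: the interferon element core AAGTGAAA, the spaced repeat of interferon-stimulated response elements GAAANNGAA, the kappa B motif GGGATTCCC, the CCAAT box and the X box core CCTAGCAAC.
H2-T23: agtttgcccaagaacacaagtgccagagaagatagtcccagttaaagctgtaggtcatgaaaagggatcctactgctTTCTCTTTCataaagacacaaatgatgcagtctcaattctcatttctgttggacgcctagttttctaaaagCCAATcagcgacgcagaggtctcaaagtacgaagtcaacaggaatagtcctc
H2-T22: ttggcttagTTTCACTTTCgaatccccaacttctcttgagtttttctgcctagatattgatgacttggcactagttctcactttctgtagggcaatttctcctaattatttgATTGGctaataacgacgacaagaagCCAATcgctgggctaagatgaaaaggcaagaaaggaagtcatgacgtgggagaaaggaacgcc
H2-Q7: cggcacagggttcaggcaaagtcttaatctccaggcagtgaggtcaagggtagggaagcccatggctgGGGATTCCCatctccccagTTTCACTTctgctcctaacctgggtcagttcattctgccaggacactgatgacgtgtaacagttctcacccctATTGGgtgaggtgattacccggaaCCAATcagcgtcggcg
H2-M3: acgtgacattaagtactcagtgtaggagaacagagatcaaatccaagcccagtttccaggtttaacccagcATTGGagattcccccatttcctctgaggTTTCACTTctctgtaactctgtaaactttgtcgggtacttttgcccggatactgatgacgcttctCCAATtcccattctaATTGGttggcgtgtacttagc
Mr1: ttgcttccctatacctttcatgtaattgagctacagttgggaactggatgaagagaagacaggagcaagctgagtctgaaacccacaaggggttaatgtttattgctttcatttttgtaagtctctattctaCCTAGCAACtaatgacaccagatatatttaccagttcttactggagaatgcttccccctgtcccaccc

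The interferon element core is written on the opposite strand as TTTCACTT, and it was present in 5 of the 7 promoters: H2-T22, H2-Q4, H2-Q6, H2-Q7 and H2-M3. Of all 32544 RefSeq promoters of 300 bases, 1.61% hold it. In H2-T22 it overlaps a match to the spaced repeat, which lies at bases -190 to -182 from the start. H2-T23 holds no AAGTGAAA but holds the spaced repeat at bases -123 to -115, and 8.53% of all promoters hold that motif. Upstream of that core H2-Q6 and H2-Q7 carry the kappa B motif, which 0.353% of promoters hold. The CCAAT box was in 6 of 7 promoters, against 37.4% of all. Mr1 had neither interferon motif nor a CCAAT box in this window, and was alone among the 7 in holding the X box core (0.811% of all promoters). These matches describe letters and not binding. Because the motifs were chosen after these promoters had been seen, their counts are no test, and a link to the ratios was not tested.

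The transcripts of several members share sequence, which matters because a 3' read that fits more than 1 gene may be dropped or assigned to either. Of the 50-base words in the last 500 bases of the H2-T22 transcripts, 58.9% also occur in another gene, H2-T10, for which no counts were used here. The share was 42.9% for H2-Q6, mostly with H2-Q7 (23.9%) and H2-Q4 (11.6%). It was 38.1% for H2-T23, spread over 83 genes and led by Rab33b (17.3%), and 33.7% for H2-Q4, spread over 55 genes. For H2-Q7 the share was 11.8%, and for H2-M3, Cd1d1 and Mr1 no word was shared. Over the last 1000 bases, 25.3% of the words of Cd1d1 occur in Cd1d2. For H2-Q7 the share over these bases was 36.8%, led by H2-Q6 (18.2%) and H2-Q5 (17.8%), against 34.9% for H2-T23 and 32.1% for H2-Q6. H2-M3 and Mr1 are therefore the members with the least ambiguous counts, and the values of H2-T22, H2-Q6, H2-Q4, H2-Q7 and H2-T23 are uncertain in this respect. The mm10 reference is of C57BL/6, whose H2 haplotype differs from that of BALB/c, so reads of 4T1 cells were assigned to the copies of another haplotype. The effect of either on the counts was not tested.

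**Figure D1:**
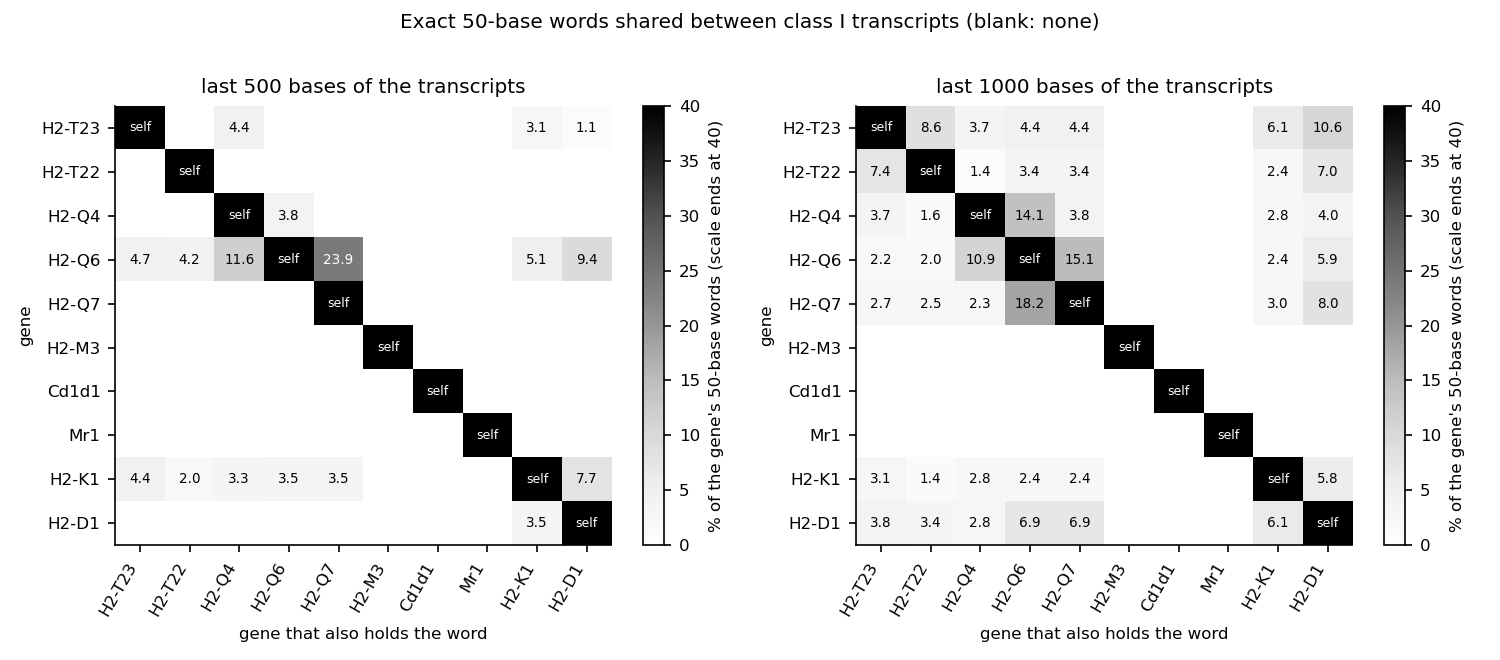
Percent of the exact 50-base words in the last 500 (left) or last 1000 (right) bases of each gene's transcripts (rows) that also occur in transcripts of another class I gene (columns), read from GENCODE vM21. The rows of H2-M3, Cd1d1 and Mr1 are blank, and the darkest cells outside the diagonal join H2-Q6, H2-Q7 and H2-Q4.

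Levels were compared as CPM of the UMIs summed over the cells of a class in each library. The 3' counts are not divided by transcript length, since each molecule is counted once. H2-T23 was found in every class. Its level was 113 CPM in vehicle and 161 in β-elemene in the Icos Il2ra cluster, 109 and 155 in T cell-like cells, and 104 and 150 in dendritic-like cells. The small pericyte-like (78.9 and 148.6) and NK cell-like groups (88.3 and 79.65) followed in the order of the mean of both libraries. Monocyte-like (64.1 and 101.7), neutrophil-like (64.7 and 99.7), malignant-like (58.9 and 102.5) and macrophage-like cells (51.1 and 87.6) came next. Endothelial-like cells stood at 42.4 and 64.3 and fibroblast-like cells, the lowest by that mean, at 44.7 and 54.0. Neighbours in this order had overlapping 95% intervals in at least 1 library, except malignant-like over macrophage-like cells. These intervals, here and below, are exact, cover counting error only and say nothing of the spread between mice.

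H2-T22 was highest in T cell-like cells, at 126 CPM in vehicle and 121 in β-elemene, and lowest in neutrophil-like cells, at 11.4 and 19.3. Neutrophil-like cells were thus low for H2-T22 and near the middle of the classes for H2-T23, its neighbour on the chromosome. Endothelial-like cells ranked higher for H2-T22 (49.4 and 82.6) than for H2-T23.

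H2-Q4 was as high in malignant-like cells (140 CPM in vehicle, 181 in β-elemene) as in T cell-like cells (154 and 171) and the Icos Il2ra cluster (134 and 178). It was lowest in fibroblast-like cells, at 22.7 and 33.1. H2-Q6 had its highest level in malignant-like cells, at 61.4 and 80.7, and its lowest in fibroblast-like cells, at 7.46 and 10.18. H2-Q7 was led by T cell-like cells (137 and 163) and the Icos Il2ra cluster (117 and 165), followed by malignant-like cells (85.0 and 119). Across 11 classes in 2 libraries (22 points, on log2(CPM + 1)), the levels of H2-Q4, H2-Q6 and H2-Q7 ran together, with Pearson's r between 0.879 and 0.910. These 3 genes share transcript sequence, as described above, and classes of a library share depth and may share free RNA.

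H2-M3 stood at 41.7 and 46.1 CPM in T cell-like cells, 29.4 and 34.1 in monocyte-like cells, 23.9 and 32.1 in macrophage-like cells and 19.3 and 25.9 in malignant-like cells. Neutrophil-like cells were lowest, with 2.74 CPM in vehicle and 5.62 in β-elemene, from 7 and 23 UMIs, and fibroblast-like cells were next, at 11.5 and 14.3. A UMI of H2-M3 was seen in 0.623% and 1.24% of neutrophil-like cells, which had medians of 1910 and 1981 UMIs. In macrophage-like cells it was seen in 24.6% and 29.0%, with medians of 12582 and 11374. When every cell was thinned to 1000 UMIs the shares were 0.101% and 0.630% in neutrophil-like and 2.46% and 3.69% in macrophage-like cells.

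Cd1d1 and Mr1 were scarce. Cd1d1 reached 11.6 and 13.8 CPM in T cell-like cells, 10.34 and 9.27 in dendritic-like cells and 8.26 and 8.45 in malignant-like cells. In neutrophil-like cells it stood at 1.57 and 1.22. Most neighbours in its order could not be separated at this depth, since 6 of its 8 compared classes had under 100 UMIs of Cd1d1 in both libraries together. Mr1 had a pattern of its own: fibroblast-like cells were highest, at 11.5 CPM in vehicle and 10.31 in β-elemene, above macrophage-like cells at 5.64 and 5.30 with intervals that did not overlap. Malignant-like cells stood at 3.34 and 3.60. Neutrophil-like cells had 1 and 2 UMIs of Mr1, and dendritic-like cells had none among 1256791 and 1078373 UMIs. A UMI of Mr1 was found in 20.1% and 19.9% of fibroblast-like cells (medians of 20641 and 21749 UMIs) against 0.0890% and 0.112% of neutrophil-like cells. Thinned to 1000 UMIs, the shares were 0.929% and 0.774% against 0.101% and 0.

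**Figure D2:**
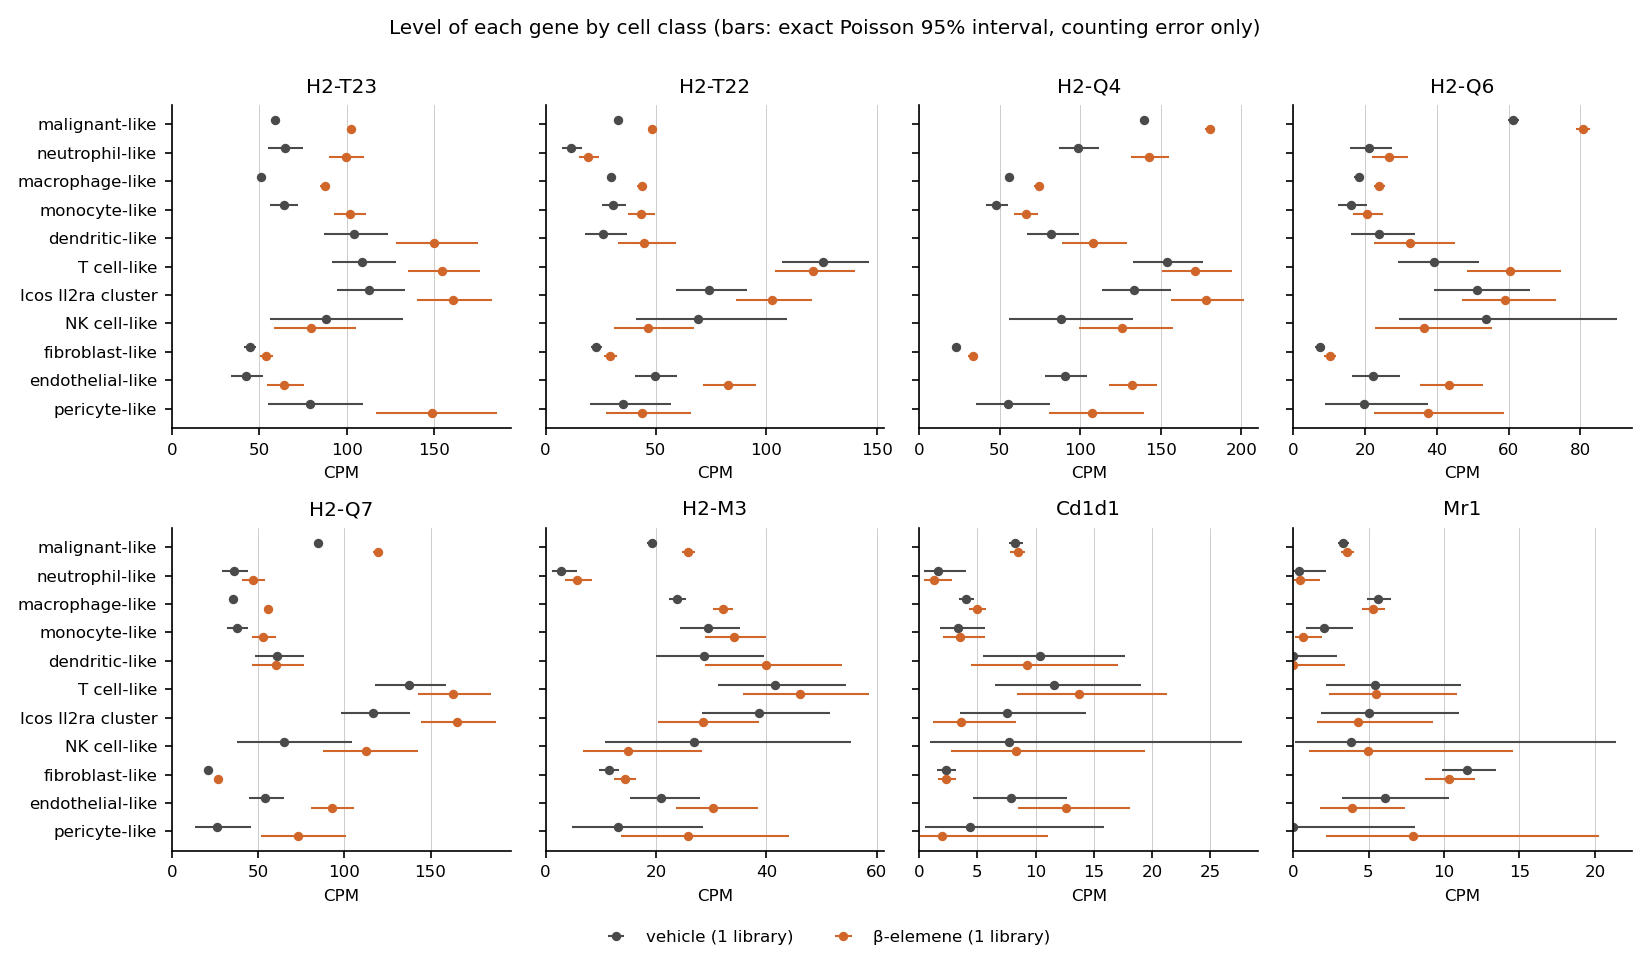
Level of each gene in CPM (horizontal, linear, own scale per panel) in 11 classes, with 1 point per library, vehicle in grey and β-elemene in orange, and exact Poisson 95% intervals of counting error as bars. The orange points of the 6 H2 genes lie mostly to the right of the grey ones, while those of Cd1d1 and Mr1 do not, and Mr1 is highest in fibroblast-like cells.

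The genes whose levels were most like each member over the same 22 points were found among 11459 genes with at least 1000 UMIs. For H2-T23 they were Gtf2b (r 0.819), Ddx19b (0.813) and Psmb9 (0.787), a subunit of the immunoproteasome. For H2-Q7 the first was the classical gene H2-K1 (0.910), and for H2-Q4 the first 3 were H2-Q6 (0.910), H2-D1 (0.900) and H2-Q7 (0.879). H2-Q6 was most like H2-Q4, Frg1 and H2-Q7. No class I gene was among the 3 most alike for H2-T22 (Ankib1, Acin1, Rpa2), H2-M3 (Cwc15, Aar2, Cnp), Cd1d1 (Apobec3, Dnajc7, Zfp329) or Mr1 (Rrm1, Rmdn2, Smpd1).

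Between the libraries, the 6 genes of the H2 complex were higher with β-elemene in nearly all classes and the other two were not. Over all kept cells H2-T23 stood at 56.9 CPM in vehicle and 93.9 in β-elemene, a ratio of 1.65 (95% interval 1.61 to 1.70). The ratio was 1.41 for H2-T22, 1.38 for H2-Q7, 1.30 for H2-M3, 1.26 for H2-Q4 and 1.252 for H2-Q6. It was 1.03 for Cd1d1 (0.944 to 1.13) and 0.998 for Mr1 (0.897 to 1.11). The kept cells also differed in their mix of classes, and the ratios within classes follow.

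A gene was called different in a class when the ratio was at least 1.5 in either direction, its 95% interval excluded 1 and the libraries together held at least 100 UMIs. In 8 classes with at least 100 cells per library, 49 of the 64 pairs of a member and a class reached that UMI minimum, 11 were called higher with β-elemene and 0 lower. Of the 44 pairs of an H2 gene, 42 had a ratio above 1 and 34 an interval wholly above 1. Of the 5 pairs of Cd1d1 or Mr1, 3 had a ratio above 1 and 0 an interval that excluded 1. The median log2 ratio of all measured genes lay between -0.033 in dendritic-like and 0.068 in endothelial-like cells. That of the measured members lay between 0.202 in T cell-like and 0.672 in endothelial-like cells.

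In malignant-like cells 1 of 8 measured members, H2-T23, was called higher, where the same rule called 1.34% of 13632 genes higher and 5.12% lower. In macrophage-like cells H2-T23 and H2-Q7 were called, 2 of 8, against 0.677% of genes higher and 1.73% lower. In neutrophil-like cells H2-T23 and H2-T22 were called, 2 of 5, against 1.15% and 2.74%. H2-T23 was called in monocyte-like cells, 1 of 6, against 2.14% and 1.80%. H2-Q6 was called in T cell-like cells, 1 of 6, against 1.89% and 2.55%. Endothelial-like cells had 4 of 6, H2-T23, H2-T22, H2-Q6 and H2-Q7, against 2.96% and 1.84%. None of 7 was called in fibroblast-like cells (1.93% and 2.37% of genes) and none of 3 in dendritic-like cells (2.50% and 6.26%). None of 5 was called in the Icos Il2ra cluster (2.55% and 3.53%), which is not among the 8 classes. Because these contrasts were known when the genes were chosen, the counts are not evidence about them.

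Among the members H2-T23 had the highest ratio in malignant-like, macrophage-like and monocyte-like cells. It was 1.74 in malignant-like cells (1.68 to 1.80), from 5386 and 8004 UMIs, and 1.72 in macrophage-like cells (1.62 to 1.82). The macrophage-like class includes a cluster led by Mmp12 and Arg1 that had 1 monocyte marker and 0 macrophage markers among its top 10 genes. Without that cluster the macrophage-like ratio of H2-T23 was 1.77 (1.67 to 1.88) and that of H2-Q7 1.63 (1.505 to 1.758), and the same 2 of 8 members were called. It was 1.59 in monocyte-like cells (1.36 to 1.86), 1.54 in neutrophil-like cells (1.28 to 1.86) and 1.52 in endothelial-like cells (1.16 to 1.99). Lower ratios that excluded 1 were seen in dendritic-like (1.44), Icos Il2ra (1.43), T cell-like (1.42) and fibroblast-like cells (1.21, 1.09 to 1.34). In NK cell-like cells, with 23 and 48 UMIs, the ratio was 0.902 (0.538 to 1.55). A UMI of H2-T23 was found in 57.1% of malignant-like cells in vehicle and 75.6% in β-elemene, with medians of 21529 and 22611.5 UMIs, and in 5.88% and 10.8% after thinning to 1000 UMIs. No class is known to lack Qa-1, so no class gives its background of free RNA.

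Of the other H2 genes, H2-T22 had ratios of 1.46 in malignant-like cells (1.39 to 1.53), 1.46 in macrophage-like cells (1.35 to 1.58), 1.67 in endothelial-like cells and 1.70 in neutrophil-like cells. The last rested on 29 and 79 UMIs. In T cell-like cells, where H2-T22 was highest, the ratio was 0.963 (0.773 to 1.20), and over the alternative settings it ran from 0.600 with cells thinned to 1000 UMIs to 1.197 with called doublets kept. H2-Q7 had ratios of 1.40 in malignant-like cells (1.36 to 1.45), 1.57 in macrophage-like cells (1.47 to 1.69) and 1.71 in endothelial-like cells (1.36 to 2.17). In dendritic-like cells its ratio was 0.984 (0.696 to 1.39), and it lay on either side of 1 under other settings.

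H2-Q4 had a ratio between 1.115 in T cell-like cells and 1.46 in endothelial-like cells, with an interval above 1 in 6 of 8 classes. None of its ratios reached 1.5, but some intervals ran past it, up to 1.76 in endothelial-like cells. H2-Q6 had 1.31 in malignant-like cells (1.27 to 1.36), 1.54 in T cell-like cells (1.08 to 2.22) and 1.94 in endothelial-like cells (1.36 to 2.80). H2-M3, the H2 gene with the least shared sequence, had 1.34 in malignant-like cells (1.26 to 1.43) and 1.34 in macrophage-like cells (1.23 to 1.47). Cd1d1 had 1.02 in malignant-like cells (0.920 to 1.14) and 1.22 in macrophage-like cells (0.976 to 1.53). Mr1 had 1.08 in malignant-like (0.914 to 1.27), 0.940 in macrophage-like (0.767 to 1.15) and 0.893 in fibroblast-like cells (0.712 to 1.12). The intervals of Cd1d1 and Mr1 in malignant-like cells do not reach 1.5, but that of Cd1d1 in macrophage-like cells does. The part of free RNA in these ratios was not tested.

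**Figure D3:**
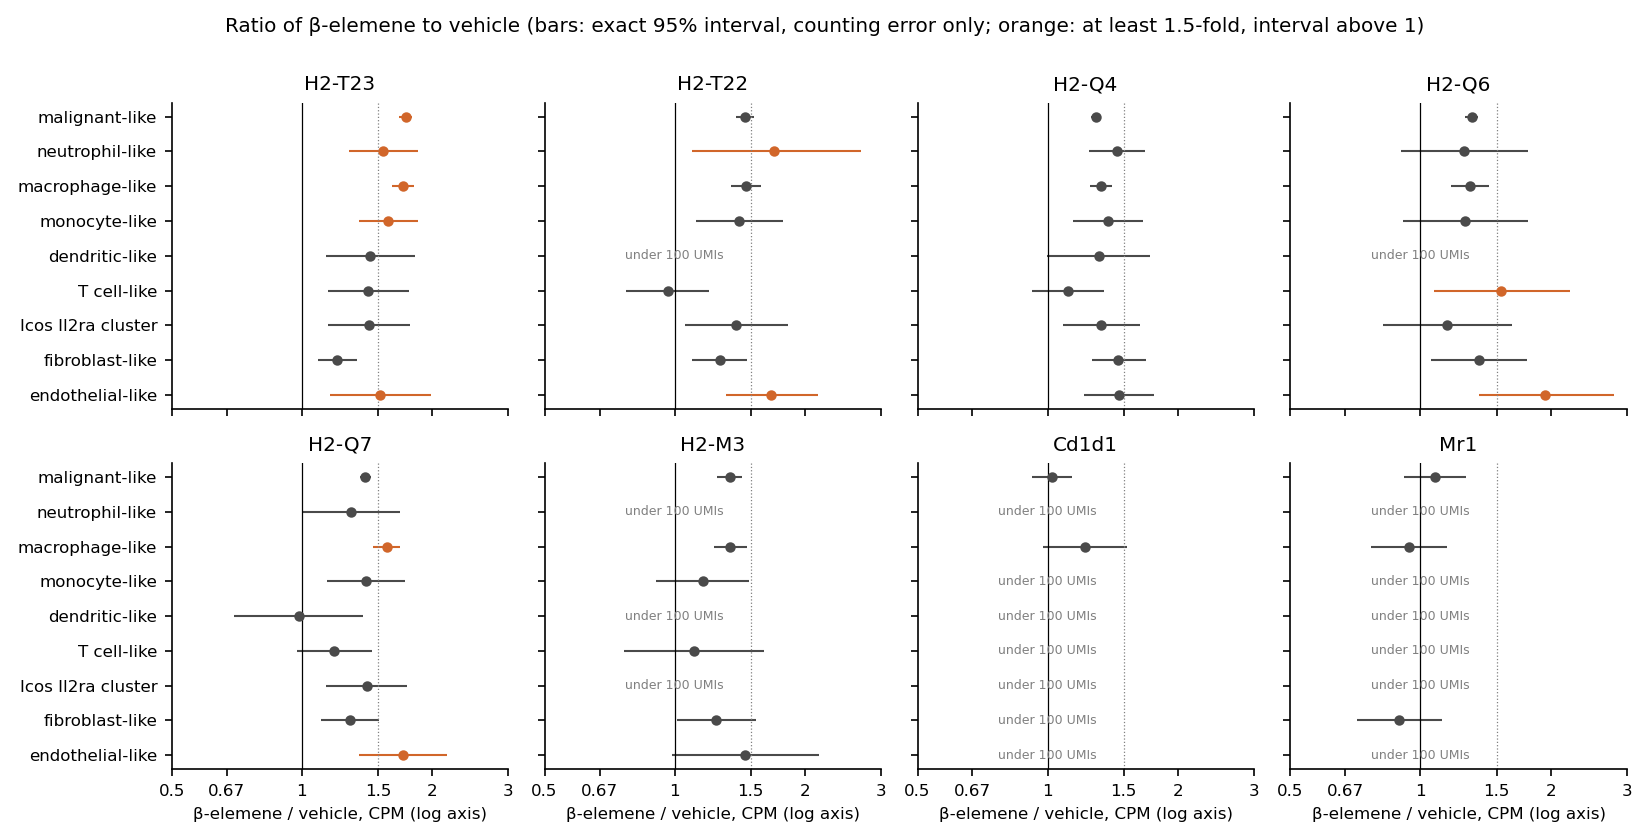
Ratio of CPM in β-elemene to CPM in vehicle (horizontal, log axis) for each gene in 8 classes and the Icos Il2ra cluster, with exact 95% intervals of counting error. The solid line marks 1, the dotted line 1.5, and orange the 11 called pairs. Nearly all points of the H2 genes lie right of 1, and those of Cd1d1 and Mr1 lie around it.

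The ratios of the called pairs differed in how far they depended on the processing. Over 14 alternative ways of counting and clustering, the ratio stayed at 1.5 or above in all 14 for H2-T23 in malignant-like cells and for H2-T22, H2-Q6 and H2-Q7 in endothelial-like cells. It did so in 13 for H2-T23 in macrophage-like cells, in 12 for H2-T23 in monocyte-like and H2-T22 in neutrophil-like cells, and in 11 for H2-T23 in neutrophil-like and H2-Q7 in macrophage-like cells. H2-T23 in endothelial-like cells stayed in 10 and H2-Q6 in T cell-like cells in 6. These counts rest on the ratio alone, without the interval or the UMI minimum, so they do not count calls that held. After thinning most pairs lay under that minimum. For H2-Q6 in endothelial-like cells thinning left a UMI in 2.67% of cells in vehicle and 4.76% in β-elemene. The intervals overlapped (0.874% to 6.13% and 2.20% to 8.85%), so the thinned ratio of this pair cannot show that its call held. Monocyte-like, T cell-like and endothelial-like cells were 1 cluster each. Weighting clusters alike or taking only the largest cluster could therefore not change their ratios, and their counts include both settings. Counts of these classes are not comparable with those of malignant-like, macrophage-like and neutrophil-like cells.

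H2-T23 spread more widely over the clusters within the malignant-like class than between the libraries. A cluster led by Lcn2, Rab25, Cldn3 and Cldn4, genes of epithelial junctions and secretion, held 112 CPM in vehicle and 163 in β-elemene. A cluster led by Car9 and Csf3, where Car9 is a hypoxia-induced carbonic anhydrase, held 56.1 and 88.0. Clusters of dividing cells were lowest, with 27.6 and 44.7 in that led by Cdc20 and Pttg1 and 34.4 and 57.1 in that led by histone genes. The remaining cluster, led by Gm26917 and Ghr, held 65.9 and 77.9. Between the highest and the lowest of the 5 clusters H2-T23 thus spanned 4.08-fold in vehicle and 3.64-fold in β-elemene. H2-Q4 spanned 1.77-fold and 1.72-fold and H2-Q6 1.42-fold and 1.252-fold over the same clusters. The Lcn2 Rab25 cluster was also the highest of the 5 for H2-T22, H2-Q6, H2-Q7 and H2-M3 in both libraries, but not for H2-Q4, which was highest in the Gm26917 Ghr cluster.

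The mix of these clusters also differed. The Lcn2 Rab25 cluster made up 24.8% of malignant-like cells in vehicle and 40.8% in β-elemene, and the Car9 cluster 37.7% and 27.8%. With the clusters weighted alike in both libraries the ratio of H2-T23 in malignant-like cells was 1.51 in place of 1.74. Within the clusters it was 1.45 in the Lcn2 Rab25 cluster (1.38 to 1.52), 1.57 in the Car9 cluster (1.47 to 1.67), 1.62 in the Cdc20 cluster (1.44 to 1.83) and 1.66 in the histone cluster (1.49 to 1.86). In the Gm26917 Ghr cluster it was 1.18 (0.884 to 1.58). Class I genes took no part in the clustering, but genes that vary with them did.

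Over the 6 macrophage-like clusters H2-T23 spread less widely, by 2.285-fold in vehicle and 2.715-fold in β-elemene. H2-T23 was highest in a cluster led by Adamdec1, C1qb and the class II gene H2-Ab1, at 69.9 CPM in vehicle and 119 in β-elemene, a ratio of 1.71 (1.59 to 1.84). In a cluster led by Mmp12 and Arg1 it was 33.1 and 46.3, a ratio of 1.40 (1.19 to 1.64). A cluster led by Lyve1 and Cd163, genes of resident macrophages, had 41.4 and 76.7, a ratio of 1.85 (1.52 to 2.25). The dividing cluster had 30.6 and 72.5, and its ratio of 2.37 (1.87 to 3.02) was the highest among the named clusters. A cluster led by Fcrls and Ccl12 had 39.9 and 44.0, a ratio of 1.10 (0.876 to 1.39). For the cluster led by Ccl12 and Aif1 the values were 52.4 and 92.3, from 15 and 73 UMIs, a ratio of 1.76 (1.001 to 3.307). The dividing macrophage-like cluster also had the highest macrophage ratios of H2-T22 (2.29), H2-Q7 (2.40) and H2-M3 (1.85).

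Over the 23 clusters with at least 50 cells in each library, unnamed ones included, the ratio of H2-T23 was above 1 in 22 and ran from 0.902 to 2.94. Its interval lay above 1 in 18 clusters and below 1 in 0. H2-Q4 and H2-Q7 had intervals above 1 in 16 clusters each, H2-T22 in 14, H2-Q6 in 10 and H2-M3 in 8, and none of them had one below 1. Cd1d1 had 0 on either side. Mr1 had 0 above and 1 below, in the Lyve1 Cd163 cluster, where it stood at 8.65 CPM in vehicle and 3.40 in β-elemene (ratio 0.393, 0.181 to 0.785).

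**Figure D4:**
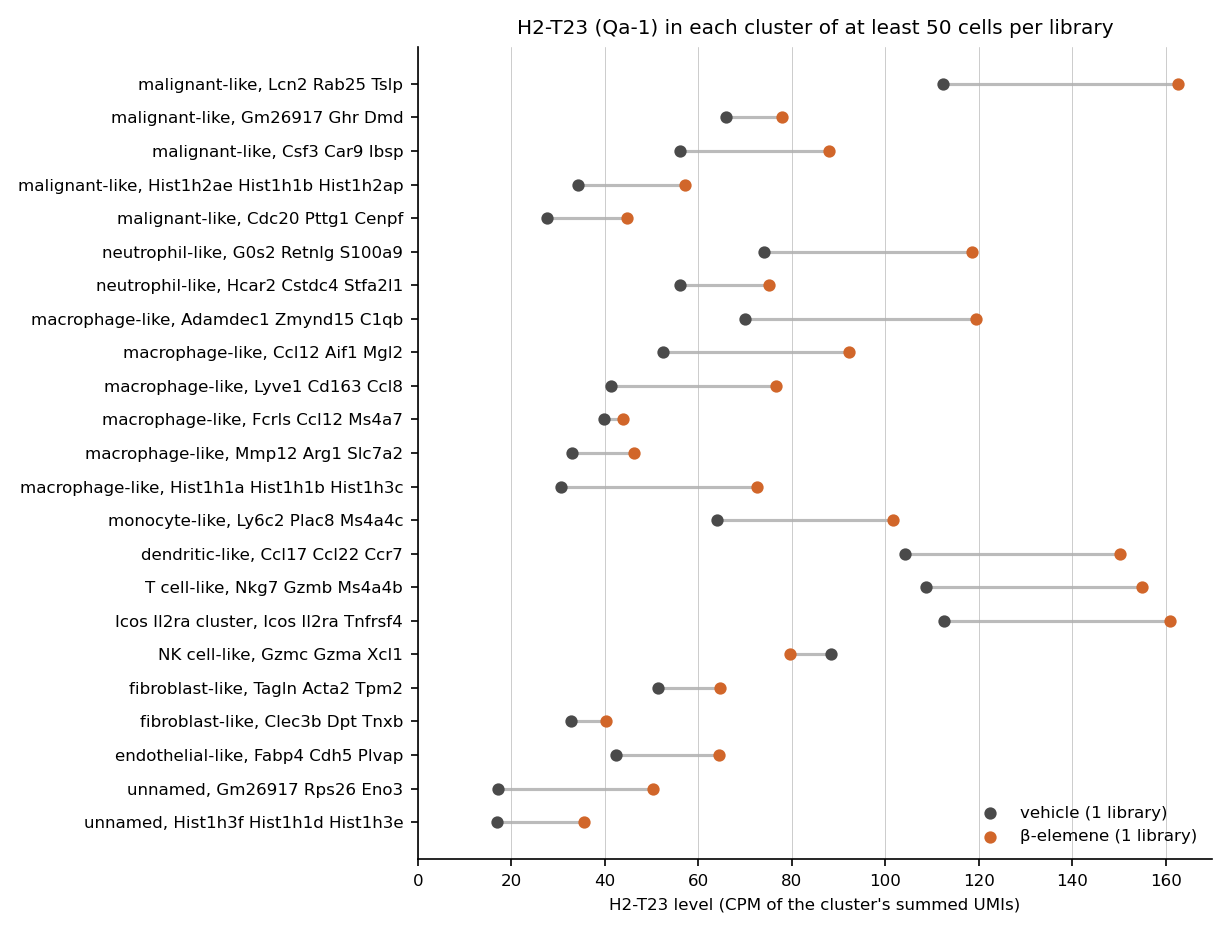
H2-T23 level in CPM (horizontal, linear from 0) in each of 23 clusters, named by class and 3 leading genes, in vehicle (grey) and β-elemene (orange), joined by a line. The orange point is the higher one in 22 clusters, and the malignant-like clusters run from 27.6 CPM in the Cdc20 cluster to 112 in the Lcn2 Rab25 cluster in vehicle.

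As a share of all class I heavy-chain UMIs, classical genes included, H2-T23 made up 1.94% in malignant-like cells in vehicle (1.88 to 1.99) and 2.49% in β-elemene (2.44 to 2.55). In macrophage-like cells it made up 2.11% and 2.88%. Fibroblast-like cells had a larger share that did not grow, 4.55% (4.21 to 4.91) and 4.24% (3.96 to 4.54). The 3 Q genes together made up 9.39% and 9.25% in malignant-like cells, nearly the same share. In macrophage-like cells the Q genes made up 4.54% and 5.07%.

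The classical chains and the genes of the light chain and peptide loading had lower ratios than H2-T23 in both populous classes. Not all of them were lower than the other members. In malignant-like cells H2-D1 was above H2-Q4 (1.29), H2-Q6 (1.31) and H2-M3 (1.34), and below H2-T22 (1.46) and H2-Q7 (1.40). Both classical genes had ratios above 1 in malignant-like cells, 1.39 for H2-D1 (1823 and 2531 CPM) and 1.24 for H2-K1 (806 and 999), and in macrophage-like cells 1.27 and 1.16. None of the 14 genes of the light chain and peptide loading was called in either class, and 10 of 14 had a ratio above 1 in each. The most abundant, B2m, the light chain itself, had ratios of 1.17 in malignant-like and 1.13 in macrophage-like cells. The highest was Psmb9, at 1.49 and 1.48, and the lowest Canx, a chaperone of the endoplasmic reticulum, at 0.908 and 0.863. The median log2 ratio over these 14 was 0.184 in malignant-like and 0.161 in macrophage-like cells, against -0.012 and -0.018 for all genes. In each of neutrophil-like, monocyte-like, dendritic-like, fibroblast-like and endothelial-like cells, 2 of the listed genes were called higher and 0 lower. Psmb9 was among them in neutrophil-like (1.58), monocyte-like (1.65), dendritic-like (1.81) and fibroblast-like cells (1.77), but not in endothelial-like cells (1.43). In T cell-like cells 0 of 13 were called.

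Of the 9 regulators, among them the class I transactivator Nlrc5 and the interferon factor Irf1, none was called in malignant-like or macrophage-like cells. Irf1, the most abundant in malignant-like cells, had a ratio of 1.19 (182 and 218 CPM). Rfxap, a subunit of the factor that binds the X box, had the highest ratio in both, 1.29 and 1.27. The lowest were Rfx5 in malignant-like (0.924) and Irf2 in macrophage-like cells (0.993). The Lcn2 Rab25 cluster, which was the malignant-like cluster with most H2-T23, held 177 CPM of Psmb9 in vehicle and 209 in β-elemene. The histone cluster held 112 and 179, the Car9 cluster 95.5 and 143 and the Cdc20 cluster 82.4 and 122. The Gm26917 Ghr cluster was lowest for Psmb9, at 54.6 and 49.8. For H2-T23 that cluster stood above both clusters of dividing cells, so the order of the clusters was not the same for the 2 genes.

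Other class I-like genes had ratios on both sides of 1. Of 29 in the list 25 were in the files, and 10 were measured in malignant-like cells, 5 with a ratio above 1 and 0 called. H2-Q1 had the highest ratio there, 1.33 (1.19 to 1.48), and Raet1e, a ligand of the activating receptor NKG2D, the lowest, 0.768 (0.703 to 0.840). Ulbp1, another NKG2D ligand and the most abundant, had 0.981. In macrophage-like cells H2-Q10 was highest (1.42) and Ulbp1 lowest (0.854), and Fcgrt, the neonatal Fc receptor and most abundant, had 0.889 (0.859 to 0.920). None of the 5 genes of CD1d lipid loading was called in malignant-like cells, with Npc2 at 1.18 and Psap at 1.04. In macrophage-like cells Mttp, a microsomal lipid transfer protein, was called higher at 1.78, from 1.90 to 3.38 CPM, and Psap, the most abundant, had 1.01.

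Of the receptors, Klrd1, which encodes CD94, was highest in NK cell-like cells at 449 and 418 CPM. Klrc1, which encodes the inhibitory NKG2A chain that binds Qa-1 together with CD94, was highest, by the mean of both libraries, in T cell-like cells at 242 CPM in vehicle and 327 in β-elemene, a ratio of 1.35 (1.17 to 1.56). It had a UMI in 62.1% and 76.9% of those cells, with medians of 4818 and 5538.5 UMIs, against 0.242% and 0.433% of the deeper macrophage-like cells. In NK cell-like cells, with 51 and 83 cells, Klrc1 stood at 276 and 136 CPM. Klrc2, the activating NKG2C chain, was also highest in T cell-like cells, at 114 and 160. Klrk1 (NKG2D) was highest in NK cell-like cells (273 and 191) and Pirb, an inhibitory receptor of class I, in monocyte-like cells (210 and 187). Pirb had ratios of 0.958 in malignant-like and 1.03 in macrophage-like cells.

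Zbtb16, a transcription factor of natural killer T and mucosal-associated invariant T cells, was highest in the Icos Il2ra cluster, at 97.5 CPM in vehicle and 22.1 in β-elemene (ratio 0.226, 0.147 to 0.339), and in macrophage-like cells it was called higher, from 2.77 to 4.74 CPM. Trdc, the γδ constant segment, was highest in NK cell-like cells, at 99.8 and 116.

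The interferon gamma list, whose cytokine raises class I genes in many cells, showed no shared direction. In malignant-like cells 2 of 5 measured genes had a ratio above 1, and the range was from 0.669 for Socs1 (0.620 to 0.722), a feedback inhibitor, to 1.10 for Ifngr1. In macrophage-like cells it was from 0.922 for Socs1 to 1.15 for Ifngr2. The most abundant were Jak2 in malignant-like (0.975) and Jak1 in macrophage-like cells (0.961). Ifng itself had 151 and 164 UMIs in T cell-like cells. In the Icos Il2ra cluster it had 261 UMIs in vehicle and 28 in β-elemene, but 213 of the 261 came from 1 cell, and 48 and 22 remained without the highest cell of each library.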

How the data were processed

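The authors deposited raw counts of UMIs for each gene in each barcode. Cell Ranger 7.1.0 is named in the file headers, and Cell Ranger, STAR and the mm10 build in the submitters' processing notes. Annotation release, intron counting and strand use are not given in the sources used here.

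Barcodes with at least 200 genes and at most 20% mitochondrial UMIs were kept, and called doublets were removed (348 in vehicle, 297 in β-elemene). Both libraries were clustered together (scanpy 1.11.5, 2000 variable genes without class I genes, 30 components, 15 neighbours, Leiden resolution 1.0). Clusters were named from marker lists. Clusters under 3 detected markers, without a clear best class, or shallow without a marker among their top genes stayed unnamed. So did 2 epithelial clusters with normal mammary gland genes, by a rule added after seeing them. The monocyte-like cluster was less than 1.5 times ahead of the next class by marker score and was named because 4 of its top 10 genes were monocyte markers, by a provision added after seeing the clusters. No cluster of a class had more markers of another class than of its own among its top 10 genes, except the Mmp12 Arg1 cluster of the macrophage-like class (1 against 0), so ratios of that class were also computed without it. UMIs were summed per class and library and scaled to CPM. Ratios have exact conditional intervals at 95%. With 1 library per group nothing was tested. The interval rule was run on counts simulated with counting error only, which is what the interval assumes. That check therefore says nothing of the spread between cells or mice. Named list genes are the most abundant and those with the highest and lowest ratio in malignant-like and macrophage-like cells, and 1 of them is not reported here. The members and lists were chosen with earlier results of these data known. Scaling, filters, clustering, thinning and cluster weights were varied.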

Additional observations from a re-analysis of the deposited data

How the results depend on the processing

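The count of 11 member and class pairs called higher ranged from 9 to 13 under other scalings, filters, clusterings, cluster weights and UMI minima, the removal of barcodes found in both libraries and of the Mmp12 Arg1 cluster from the macrophage-like class, 2 alternatives chosen after seeing the data, included. It was 6 with 10 CPM added, 7 with cells thinned to 1000 UMIs, where 16 pairs reached the minimum, and 32 with the fold set midway between 1 and 1.5. The count of pairs called lower was 0 under each of them. Thinning moved 9 single ratios by over 1.5-fold, and the mean over cells moved that of H2-Q4 in dendritic-like cells from 1.31 to 2.003. H2-T23 in monocyte-like cells was 1.30 at clustering resolution 2.0. In the clusterings at other settings the Icos Il2ra cells could fall into the T cell-like class, where H2-Q6 was 1.22 at resolution 0.5. No paired analysis was possible because each group is 1 library. Depth left 15 pairs under 100 UMIs, 11 of them of Cd1d1 or Mr1 and 4 of H2 genes.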
